A study of Homo sapiens with 6 samples.

Results

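Activator protein 1 (AP-1) is a family of basic leucine zipper (bZIP) transcription factors, and its mRNAs were followed here in MDA-MB-231 cells, a triple-negative breast cancer line of mesenchymal character. The 9 members, FOS, FOSB, FOSL1, FOSL2, JUN, JUNB, JUND, ATF3 and MAFF, were chosen by name with earlier results of these data known. All 9 were found among the 24462 gene symbols of the count tables. All 9 also passed the filter on low counts, which 12650 symbols passed. The cells were harvested 48 h after transfection with a negative control (NC) mimic, with 100 nM of the miR-200a mimic, or with 100 nM of the miR-200a mimic and 30 ng of a pcDNA3.1 plasmid that carries the ELK3 coding region. Each of the 3 groups has 2 libraries, and those of the third group are called here the plus-ELK3 libraries after their label. The dose of the NC mimic is not given, and neither the labels nor the methods say that the other groups received an empty plasmid, so the plasmid as such and its ELK3 insert cannot be told apart. The labels do not say that the 2 libraries of a group came from separate cultures, so the p-values measure only the spread between libraries. The 3 groups share the estimate of that spread, so the plus-ELK3 libraries also enter the test of miR-200a against the NC mimic. In the same way, the NC mimic and miR-200a libraries enter the estimate behind the tests of the plus-ELK3 libraries. In a fit that leaves 1 library in a group, that group adds nothing to the spread.

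The libraries were made by QuantSeq, which yields about a single read per transcript close to its 3′ end, so the counts of different genes can be set side by side without a correction for length. They held 3055915 to 4868004 counts. Values are given in CPM, the count per unit of library size after scaling by the TMM method of edgeR, and 3 counts, taken as the lowest level that could be detected, were 0.611 to 0.979 CPM, a floor that covers counting error only. Of 7 mesenchymal markers, the summed level was 4600 to 4860 CPM under the NC mimic, 4610 to 4800 under miR-200a and 3270 to 4180 in the plus-ELK3 libraries, and the part of this in the results below was not tested. SPARC was the exception among them, with 0 to 8 counts. The estrogen receptor gene ESR1 had 0 counts in all 6 libraries, and the 6 luminal epithelial markers summed to 13.4 to 19.9, 34.4 to 39.2 and 21.4 to 28.2 CPM in the same order of groups. ELK3 stood at 137.6 and 166.1 CPM under the NC mimic, 102.4 and 102.9 under miR-200a, and 96.15 and 79.2 in the plus-ELK3 libraries. These counts come from 3′ ends and the plasmid carries no ELK3 3′UTR, so they do not check whether the plasmid was expressed, and the libraries are named by their labels alone. The plus-ELK3 replicates differed more from each other than the replicates of the other groups, with a median absolute difference over all tested genes of 0.325 on the log2 scale against 0.183 and 0.148. The standard errors and p-values of the plus-ELK3 comparisons rest on the shared spread. They can be too small for a gene whose plus-ELK3 replicates lie far apart, such as FOS.

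AP-1 factors bind DNA as dimers that are held together by leucine zippers. JUN proteins can pair among themselves or with a FOS protein, whereas FOS proteins mostly pair with a JUN protein. Both kinds of dimer bind the motif known as the TPA response element. Many of the genes are immediate-early genes that growth factors and stress switch on within minutes through MAP kinases and through ternary complex factors of the ETS family, to which ELK3 belongs. In breast cancer cells of mesenchymal type, AP-1 is known for its role in invasion and in the expression of proteases and cytokines. On GRCh38 (GENCODE release 29, matched by symbol) the FOS family genes are FOS at chr14:75278774-75282230 and FOSB at chr19:45467995-45475179, both on the plus strand, FOSL1 at chr11:65892049-65900573 on the minus strand and FOSL2 at chr2:28392448-28417312 on the plus strand. JUN is at chr1:58780788-58784327 and JUND at chr19:18279760-18281622, both on the minus strand, and JUNB is at chr19:12791496-12793315 on the plus strand. ATF3, at chr1:212565334-212620777, and MAFF, at chr22:38200767-38216511, are also on the plus strand.

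The seed of miR-200a, bases 2 to 8, is shown first, together with the places where the 3′UTR of a family member holds its complement, because a match there is the most direct link between the mimic and these mRNAs. The mature sequence is that of the RefSeq table (GRCh38.p14, chr1:1167916-1167937, plus strand), and capitals mark the seed.
hsa-miR-200a-3p: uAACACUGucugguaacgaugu
The complement of the seed was searched in the longest annotated 3′UTR of each gene (GENCODE release 29, GRCh38), and 18.2% of 19140 3′UTRs, with a median length of 1081 bases, hold it. Among the 9 members, FOSB and JUN hold a single match each and the other 7 hold none. The match in FOSB (chr19:45473778-45473784, plus strand) begins at base 766 of 2167, and an A follows it. The match in JUN (chr1:58781449-58781455, minus strand) begins at base 620 of 1287. That of ELK3 (chr12:96269668-96269674, plus strand) is given beside them. Capitals mark the match on the transcript's strand, read 5′ to 3′.
FOSB: tttctgatgaCAGTGTTatcccaagacc
JUN: gtatcctgccCAGTGTTgtttgtaaata
ELK3: tctgcttaatCAGTGTTaaactgctatg
A match of these letters is a description and does not show that the site is bound.

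JUN was the most abundant member in every library, and the order below it changed with the group. With the NC mimic the mean level was 710.5 CPM for JUN, 411.9 for JUNB and 181.3 for FOSL1, followed by FOS at 141.8, MAFF at 128.1, FOSL2 at 125.1, JUND at 123.7, ATF3 at 87.21 and FOSB at 84.58. The neighbours from FOS to JUND overlapped between libraries, as did ATF3 and FOSB. In the plus-ELK3 libraries FOSL1, at 172.3 CPM, came second after JUN at 532.1, and FOSB was the lowest at 18.16. JUNB, at 127.6, and JUND, at 118.9, overlapped there. Summed over the family, the level was 1961 and 2028 CPM under the NC mimic, 1821 and 1793 under miR-200a, and 1239 and 1050 in the plus-ELK3 libraries.

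**Figure D1:**
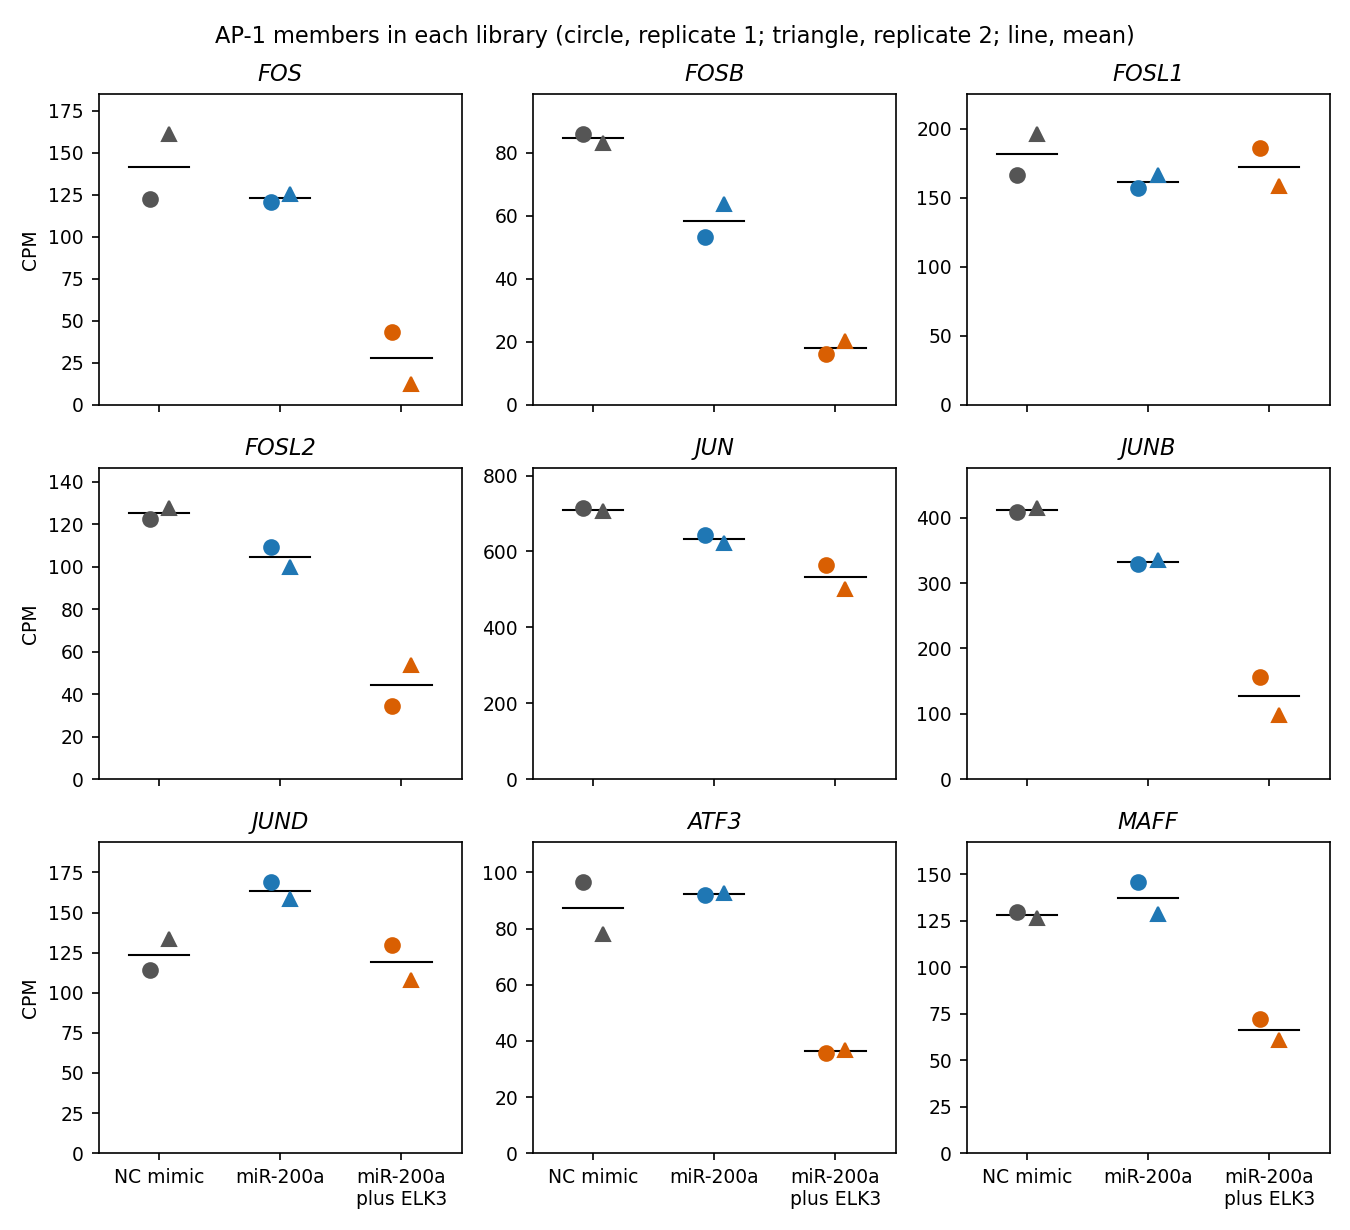
Level of each AP-1 member in every library, with a panel per gene, CPM on a linear axis from 0 that is scaled to each gene, circles for replicate 1, triangles for replicate 2 and lines for the mean of the group. The plus-ELK3 points lie lowest in FOS, where they stand at 43.58 and 12.69 CPM, and in FOSB, FOSL2, JUN, JUNB, ATF3 and MAFF, but not in FOSL1, where they stand at 186.4 and 158.2 CPM.

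The first comparison asked what the miR-200a mimic alone did to the family. No member passed the threshold of an adjusted p under 0.05 in the quasi-likelihood test of edgeR, fitted to all 6 libraries at once, with Benjamini-Hochberg adjustment over the 12650 genes, which is the test behind every adjusted p below unless another is named. The background was 0.269% of all tested genes. At an unadjusted p under 0.05 there were 2 members, against 9.24% of all tested genes. DESeq2 and limma called 0 members, beside 88 and 4 of all genes.

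These 2 members were FOSB and JUND. FOSB, an immediate-early partner of JUN proteins and the member with the match to the seed and the A after it, stood at 85.96 and 83.21 CPM with the NC mimic and at 53.15 and 63.78 with miR-200a. Both miR-200a libraries lay below both controls, and the log2 difference was -0.53 (SE 0.167, 95% interval -0.90 to -0.16, adjusted p = 0.321). JUND, the JUN protein known for steady expression, stood at 114 and 133.5 CPM with the NC mimic and at 168.8 and 158.3 with miR-200a. Here both miR-200a libraries lay above the controls, with a log2 difference of 0.41 (SE 0.147, 95% interval 0.08 to 0.73, adjusted p = 0.423). JUNB, whose product is a weaker activator than JUN, stood at 409.1 and 414.7 against 329.9 and 335.2 CPM, without overlap. Its log2 difference was -0.31 (SE 0.18, 95% interval -0.71 to 0.09, adjusted p = 0.674). With 2 libraries per group a lack of overlap is easily met, so here and below it is a description. With only the NC mimic and miR-200a libraries in the model, these 3 genes passed, at log2 differences of -0.52 for FOSB (adjusted p = 0.00371), -0.29 for JUNB (0.0034) and 0.43 for JUND (0.00168), while 7.9% of all genes then passed. The count was also 3 when either plus-ELK3 library was left out, beside 7.83% and 7.91% of all genes.

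The other 6 members gave small differences with miR-200a. JUN, the other gene with a seed match, stood at 714 and 707.1 CPM with the NC mimic and 644.5 and 622.7 with miR-200a, a log2 difference of -0.17 with a 95% interval of -0.41 to 0.08. The interval was -0.48 to 0.15 for FOSL1 and -0.67 to 0.16 for FOSL2. FOS, ATF3 and MAFF overlapped between the groups, and the interval for FOS, -0.98 to 0.58, was the widest of the family. The median log2 difference of the 9 members was -0.17, beside -0.019 over all tested genes.

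The other comparisons set the plus-ELK3 libraries against miR-200a alone, which differs by the plasmid, and against the NC mimic. They share the plus-ELK3 libraries, so their values are given side by side. Against miR-200a alone, 6 members were lower and 0 higher, namely FOS, FOSB, FOSL2, JUNB, ATF3 and MAFF. Of all tested genes, 12.9% passed, 5.91% lower and 7.03% higher. Against the NC mimic 7 members, the same 6 and JUN, were lower and 0 higher, beside 12.9% of all genes, 5.95% lower and 6.92% higher. The median log2 difference of the members was -1.24 and -1.27, beside 0.016 and 0.0105 over all tested genes. Under upper-quartile normalization 1504 and 1579 of all genes passed. The share of these called genes that were higher was 41.4% and 42.9%, in place of 54.3% and 53.8%. The called members, 7 in each comparison, were all lower. With 1 library fewer in the control group the counts of members shrank. Against miR-200a alone, 2 members passed without miR-200a replicate 1 and 1 without replicate 2, and against the NC mimic 2 passed without NC mimic replicate 1 and 3 without replicate 2. In these fits 0.387%, 0.308%, 0.711% and 0.719% of all genes passed. In limma 2 and 5 members passed, beside 107 and 391 of the 12650 tested genes.

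**Figure D2:**
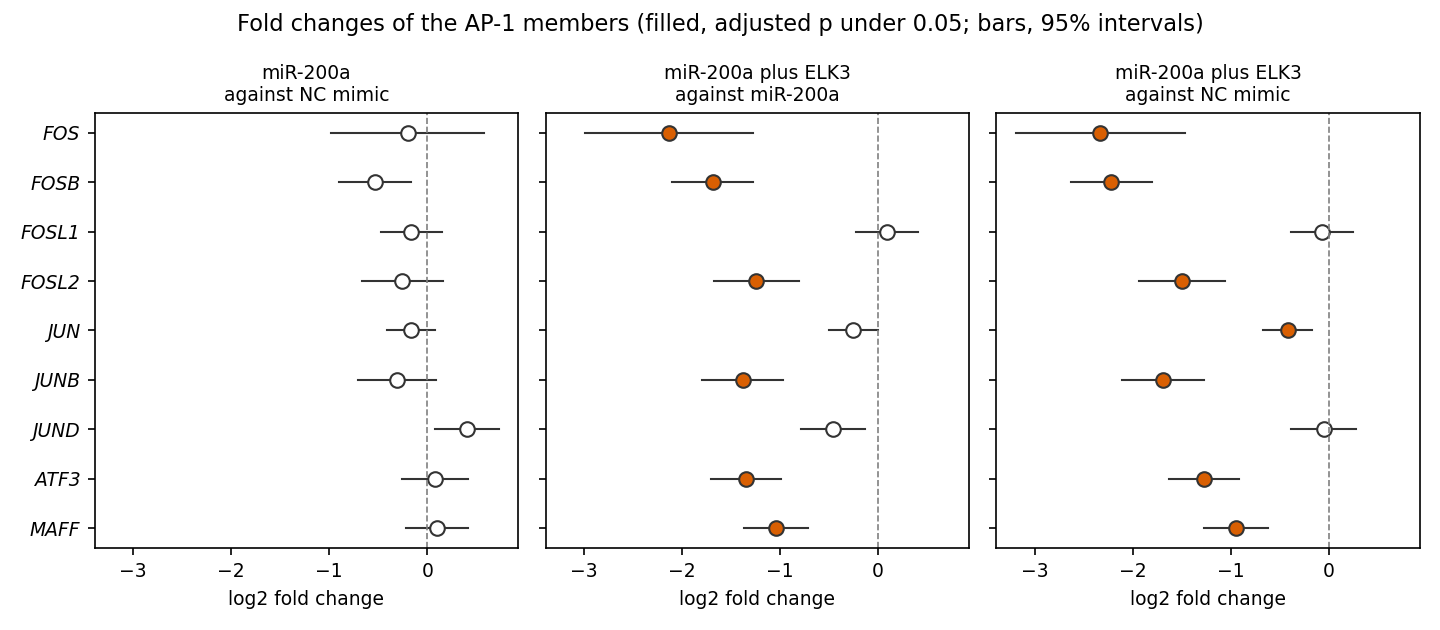
Log2 fold change of each AP-1 member in the 3 comparisons, with bars for the 95% interval and filled points for an adjusted p under 0.05. With miR-200a alone the estimates lie between -0.53 and 0.41, whereas in both comparisons of the plus-ELK3 libraries FOS, FOSB, FOSL2, JUNB, ATF3 and MAFF lie between -0.95 and -2.33, and FOSL1 lies at 0.09 and -0.07.

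Within the FOS family, FOS itself, the prototype immediate-early gene, had the largest estimate. It counted 550 and 494 reads under the NC mimic, 583 and 615 under miR-200a, and 184 and 54 in the plus-ELK3 libraries, or 122.5 and 161.2, 121 and 125.3, and 43.58 and 12.69 CPM. Both plus-ELK3 libraries were below all others, but they differed 3.43-fold from each other. On the log2 scale that gap exceeded the gap of 99.1% of the tested genes in this pair of libraries. FOS was 4.38-fold lower than with miR-200a alone (log2 -2.13, SE 0.387, adjusted p = 0.00927) and 5.03-fold lower than with the NC mimic (log2 -2.33, SE 0.389, adjusted p = 0.0062). In the ascending order of fold changes among 12650 genes it held place 71 and place 52. The estimate moved to -3.27 without plus-ELK3 replicate 1 and to -1.54 without replicate 2 against miR-200a, and to -3.44 and -1.71 against the NC mimic. The adjusted p was 0.101 and 0.0956 without miR-200a replicate 1 or 2 in the first of these comparisons, and 0.0679 and 0.1 without NC mimic replicate 1 or 2 in the second.

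FOSB had the smallest adjusted p of the family in both comparisons. Its counts were 386 and 255 under the NC mimic, 256 and 313 under miR-200a, and 68 and 86 in the plus-ELK3 libraries, or 16.1 and 20.21 CPM in the last. The plus-ELK3 replicates lay close together and far below the other 4 libraries. FOSB was 3.22-fold lower than with miR-200a (SE 0.186 on the log2 scale, adjusted p = 0.00143) and 4.65-fold lower than with the NC mimic (SE 0.186, adjusted p = 0.000201). It passed in all 16 alternative analyses of both comparisons, which are not independent of each other. In limma its adjusted p against miR-200a was 0.0442, close to the threshold. FOSB overlaps ERCC1 on the other strand, and whether the counting used strand is not given in the sources used here. The same holds for JUNB with HOOK2, MAFF with PLA2G6 and FOSL2 with FLJ31356, and FOSL2 also overlaps AC104695.3 on its own strand.

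FOSL2, which encodes FRA-2, stood at 122.7 and 127.6 CPM under the NC mimic, 109.4 and 100 under miR-200a, and 34.58 and 53.82 in the plus-ELK3 libraries. The groups did not overlap. It was 2.37-fold lower than with miR-200a (log2 -1.24, SE 0.195, adjusted p = 0.00541) and 2.83-fold lower than with the NC mimic (log2 -1.50, SE 0.196, adjusted p = 0.00192). Without miR-200a replicate 1 or 2 its adjusted p was 0.1 and 0.0711 in the first comparison, and without NC mimic replicate 1 or 2 it was 0.0504 and 0.0541 in the second.

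FOSL1, which encodes FRA-1 and is known as the FOS protein of mesenchymal breast cancer cells, gave no such difference. It stood at 166.6 and 196.1 CPM under the NC mimic, 157 and 166.5 under miR-200a, and 186.4 and 158.2 in the plus-ELK3 libraries. The plus-ELK3 libraries overlapped with both other groups. The log2 difference was 0.09 (95% interval -0.22 to 0.40, adjusted p = 0.699) against miR-200a and -0.07 (95% interval -0.39 to 0.24, adjusted p = 0.768) against the NC mimic, so a 2-fold change in either direction lay outside both intervals.

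The makeup of the FOS family differed accordingly. FOSL1 made up 33.5% and 34.5% of the FOS family counts under the NC mimic, 35.6% and 36.5% under miR-200a, and 66.4% and 64.6% in the plus-ELK3 libraries. The share of FOS was 24.6% and 28.4% with the NC mimic and 27.5% in both miR-200a libraries, against 15.5% and 5.18% in the plus-ELK3 libraries. FOSB made up 12.1% to 17.3% of the family in the first 4 libraries and 5.74% and 8.25% in the last pair. The share of FOSL2 was 22% to 24.8% in the first 4 libraries and 12.3% and 22% in the plus-ELK3 libraries, where the replicates differed. These are shares of mRNA counts, and protein was not measured here.

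**Figure D3:**
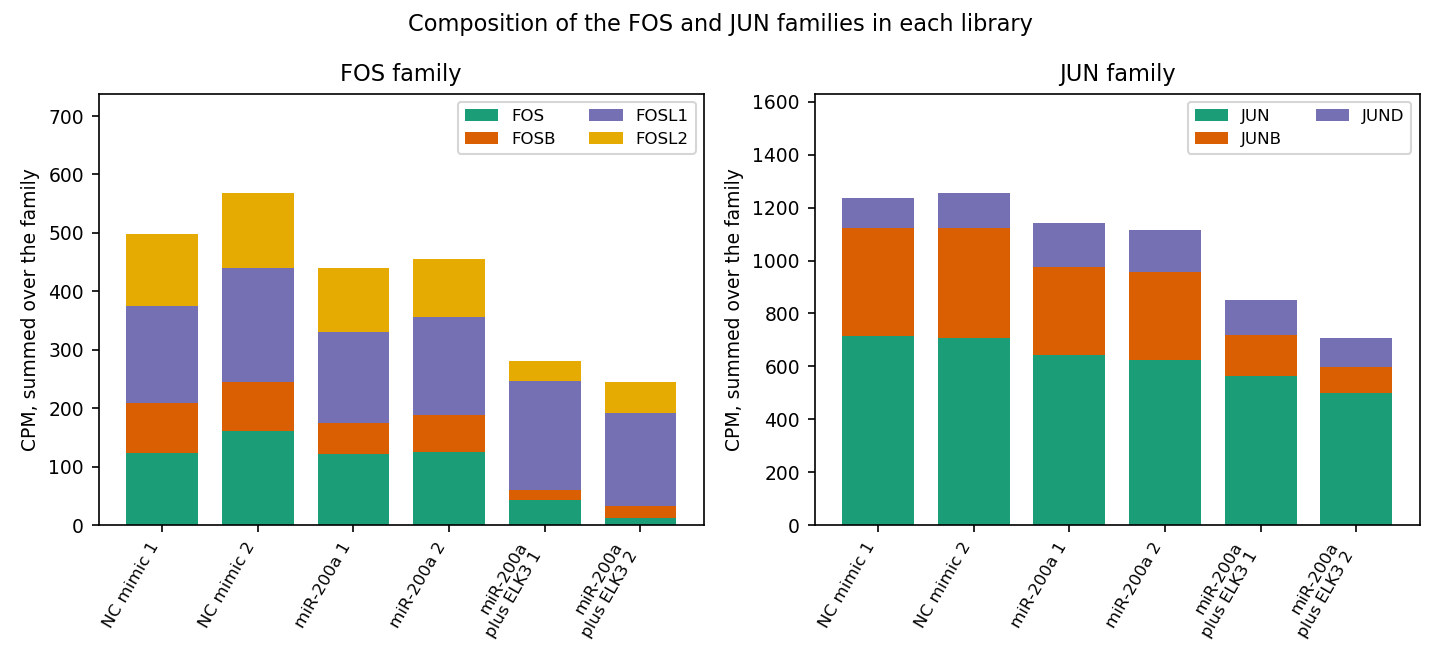
Summed CPM of the FOS family (left) and of the JUN family (right) in each library, as stacked bars that start at 0, with a colour for each gene. The FOS family bars reach 440.6 to 568.1 CPM in the NC mimic and miR-200a libraries and 280.6 and 244.9 in the plus-ELK3 libraries, and FOSL1 contributes 33.5% to 36.5% of the former and 64.6% to 66.4% of the latter.

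In the JUN family, which supplies partners of the FOS proteins, the large difference was in JUNB. It had 1837 and 1271 counts under the NC mimic, 1589 and 1645 under miR-200a, and 662 and 419 in the plus-ELK3 libraries, the last being 156.8 and 98.47 CPM. The plus-ELK3 libraries lay below the other 4. JUNB was 2.61-fold lower than with miR-200a (log2 -1.38, SE 0.186, adjusted p = 0.00293) and 3.23-fold lower than with the NC mimic (log2 -1.69, SE 0.188, adjusted p = 0.000913). It passed in all 16 alternatives against the NC mimic, whereas against miR-200a the adjusted p was 0.0632 and 0.0636 without miR-200a replicate 1 or 2.

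JUN, the core subunit, had 3206 and 2167 counts under the NC mimic, 3104 and 3056 under miR-200a, and 2380 and 2130 in the plus-ELK3 libraries. In CPM the plus-ELK3 libraries, at 563.6 and 500.6, lay below the other groups, with the smallest fold of the members that passed. JUN was 1.34-fold lower than with the NC mimic (log2 -0.42, SE 0.113, adjusted p = 0.0371), and its log2 difference from miR-200a was -0.25 (SE 0.112, adjusted p = 0.161). Against miR-200a its log2 difference was -0.34 without plus-ELK3 replicate 1 and -0.21 without replicate 2. The call against the NC mimic was lost in 9 of 16 alternatives, among them the fit with a replicate block (adjusted p = 0.0686), DESeq2 (0.0532), and the fits without NC mimic replicate 1 (0.209) or 2 (0.216).

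JUND stood at 129.8 and 108.1 CPM in the plus-ELK3 libraries, below the 168.8 and 158.3 of miR-200a and overlapping with the 114 and 133.5 of the NC mimic. Its log2 difference was -0.46 against miR-200a (SE 0.146, adjusted p = 0.0645) and -0.05 against the NC mimic (95% interval -0.38 to 0.27, adjusted p = 0.837). Against miR-200a it passed when genes were not filtered (adjusted p = 0.031) and under upper-quartile normalization (0.0402). The log2 difference of JUND from miR-200a was -0.59 without plus-ELK3 replicate 1 and -0.38 without replicate 2. Within the JUN family, JUN made up 55.8% to 57.7% in the first 4 libraries and 66.3% and 70.8% in the plus-ELK3 libraries. JUNB made up 28.9% to 33.1% in the former and 18.4% and 13.9% in the latter. The ratio of summed JUN to summed FOS family CPM ran from 2.21 to 2.59 in the first 4 libraries and was 3.03 and 2.89 in the plus-ELK3 libraries.

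ATF3, a stress-induced factor that can pair with JUN proteins, was the member whose plus-ELK3 replicates were closest to each other. It stood at 96.43 and 77.98 CPM under the NC mimic, 91.77 and 92.71 under miR-200a, and 35.76 and 36.66 in the plus-ELK3 libraries. It was 2.55-fold lower than with miR-200a (log2 -1.35, SE 0.16, adjusted p = 0.00194) and 2.42-fold lower than with the NC mimic (log2 -1.27, SE 0.162, adjusted p = 0.00167). The adjusted p was 0.0521 without miR-200a replicate 2 in the first comparison and 0.0552 without NC mimic replicate 1 in the second.

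MAFF encodes a small MAF protein, which has a leucine zipper but no activation domain of its own. It stood at 129.6 and 126.6 CPM under the NC mimic, 145.5 and 128.4 under miR-200a, and 71.99 and 60.87 in the plus-ELK3 libraries. The plus-ELK3 libraries did not overlap with the others. MAFF was 2.06-fold lower than with miR-200a (log2 -1.04, SE 0.146, adjusted p = 0.00348) and 1.93-fold lower than with the NC mimic (log2 -0.95, SE 0.148, adjusted p = 0.0047). Without miR-200a replicate 1 or 2 the adjusted p was 0.0893 and 0.0612, and without NC mimic replicate 1 or 2 it was 0.074 and 0.077 in the second comparison.

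The members were also compared by their profile over the 6 libraries, as the root mean square (RMS) difference between log2 CPM values centred on each gene's own mean. FOSL1 and JUN were nearest to each other at 0.182, and ATF3 and MAFF at 0.189. FOS stood apart, since its nearest member, JUNB, was at 0.533, and FOS and FOSL1 were the farthest pair at 1.24. Among 534 genes outside the family with at least as much spread, those nearest to the mean profile of the members were IRS2 (0.0987), NR4A2 (0.103), HLA-B (0.103), SPRY2 (0.104) and GXYLT2 (0.108). NR4A2 encodes an orphan nuclear receptor that is itself an immediate-early gene, SPRY2 a feedback inhibitor of growth factor signalling, and IRS2 an adaptor of the insulin receptor. With 6 points from the same 3 groups, these distances are a description.

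Promoters were searched for elements known to bind AP-1, CREB, ETS factors and SRF, from 250 bases before to 50 bases after the start site in the RefSeq table (GRCh38.p14), which holds 8 of the 9 members and not FOSL1. The TPA response element was searched as TGACTCA or TGAGTCA, the cAMP response element (CRE) as TGACGTCA and the ETS site as CCGGAAGT, on both strands, and the CArG box, where SRF binds, by its usual pattern. The first was in the promoter of FOSL2 alone of the 8, and in 4.95% of 35116 promoters. The CRE was in JUND and MAFF, and in 1.85% of all promoters. The ETS site and the CArG box were in 0 of the 8, beside 4.14% and 1.29% of all promoters. Capitals mark the element in 30 bases around it.
FOSL2 (chr2:28392851-28392880, plus strand): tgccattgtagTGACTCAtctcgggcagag
JUND (chr19:18281804-18281833, minus strand): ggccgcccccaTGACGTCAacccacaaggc
MAFF (chr22:38201929-38201958, plus strand): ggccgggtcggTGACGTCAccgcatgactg
The sequences are read in the direction of transcription, and no match says only that these letters are not in this window. Each member was searched at a single start site, the first listed for it, and any other start site was not searched.

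Beyond the members, 3 lists place the family in its pathway. Like the members, they were chosen with earlier results of these data known, so a share above the background is a description. Among 27 kinases and regulators upstream of AP-1, 25 were tested, and 0 passed with miR-200a alone, beside 0.269% of all tested genes. At an unadjusted p under 0.05 there were 3 of the 25, beside 9.24% of all tested genes. In each comparison of the plus-ELK3 libraries 1 was higher and 2 were lower, which is 12% of the list beside 12.9% of all tested genes, a share near the background, and the median log2 difference was -0.08 against miR-200a and -0.11 against the NC mimic. The genes that passed are given by name as single genes and not as a change of the list. DUSP1, an immediate-early phosphatase that switches off MAP kinases, stood at 95.09 and 107.4 CPM under the NC mimic, 97.38 and 108.4 under miR-200a, and 42.87 and 24.44 in the plus-ELK3 libraries. Its log2 difference was -1.61 against miR-200a (adjusted p = 0.00348) and -1.59 against the NC mimic (0.00309). SRF, the DNA-binding partner of ELK3, was higher in the plus-ELK3 libraries, by log2 0.69 (adjusted p = 0.0153) and 0.73 (0.0114). The other calls were MAP3K1, a kinase upstream of JNK, at -0.67 against miR-200a (adjusted p = 0.024) and ELK3 at -0.79 against the NC mimic (0.0117). None of the list passed in the edgeR fit once a library of the control group was left out, when 0.308% to 0.719% of all genes passed. Without a plus-ELK3 library, the spread came from the NC mimic and miR-200a pairs alone. Calls in such fits, also in the lists below, carry no replicate variation of the plus-ELK3 group.

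Of 24 other bZIP factors 21 were tested, and 0 passed with miR-200a alone, beside 0.269% of all tested genes. At an unadjusted p under 0.05 there were 2 of the 21, beside 9.24% of all tested genes. Against miR-200a 1 was higher and 5 were lower in the plus-ELK3 libraries, 28.6% of the list beside 12.9% of all tested genes, with a median of -0.26, and against the NC mimic 1 was higher and 3 were lower, 19% beside 12.9%, with a median of -0.17. BACH1, which represses genes through MAF sites, stood at 43.65 and 43.4, 49.21 and 44.22, and 22.5 and 13.16 CPM in the order of the groups. Its log2 difference was -1.39 (adjusted p = 0.00745) and -1.29 (0.00971). CEBPB, an activator of cytokine genes, was lower, at log2 -1.08 (adjusted p = 0.0138) and -0.90 (0.0255), whereas ATF5, a stress response factor, was higher by 1.09 (0.0141) and 1.00 (0.0203). CEBPD at -0.66 (adjusted p = 0.0354) and ATF2 at -0.64 (0.0454) passed against miR-200a, and CREB5 at -0.67 (0.0324) passed against the NC mimic. No member of this list passed in the edgeR fit without either library of the control group, and 10 of the 21 passed in each comparison without plus-ELK3 replicate 1, a fit in which 37.4% and 37.3% of all genes passed. Leaving out an NC mimic library left 2 calls against miR-200a, beside 4.47% and 4.53% of all genes, and leaving out a miR-200a library left 1 against the NC mimic, beside 4.69% and 4.71%.

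Among 28 textbook AP-1 target genes, 24 were tested. With miR-200a alone 0 passed, beside 0.269% of all tested genes. At an unadjusted p under 0.05 there were 9 of the 24, beside 9.24% of all tested genes. In each comparison of the plus-ELK3 libraries 10 were lower and 1 was higher, which is 45.8% of the list beside 12.9% of all tested genes (5.91% and 5.95% lower), and the median log2 difference was -0.79 against miR-200a and -0.92 against the NC mimic. IL6, the interleukin gene, stood at 122.9 and 181.1 CPM under the NC mimic, 146.2 and 179.3 under miR-200a, and 43.34 and 10.58 in the plus-ELK3 libraries. It was lower than with miR-200a, at log2 -2.59 (SE 0.441, adjusted p = 0.00745), and, as for FOS, plus-ELK3 replicate 2 was the lower of the pair. The cytokine gene IL1A stood at 133.4 and 119.1, 140.8 and 128.8, and 51.39 and 38.54 CPM, with log2 differences of -1.58 (SE 0.168, adjusted p = 0.00121) and -1.49 (SE 0.17, adjusted p = 0.000991).

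The EGF receptor ligand AREG, at log2 -1.24 (adjusted p = 0.00143) and -1.05 (0.00192), and PTGS2, which encodes cyclooxygenase 2, at -2.17 (0.00947) and -2.50 (0.00482), were lower in both comparisons. The target that was higher was CCND1, which encodes cyclin D1 and drives entry into the cell cycle. It stood at 247 and 255.8 CPM under the NC mimic, 337.8 and 339.9 under miR-200a, and 632.6 and 693.1 in the plus-ELK3 libraries, with log2 differences of 0.97 (SE 0.113, adjusted p = 0.00181) and 1.40 (SE 0.115, adjusted p = 0.00019). CD44 and AXL belong to this list and to the mesenchymal markers. In the comparison with miR-200a, the number of the 24 targets that passed was 2 without miR-200a replicate 1 or 2, beside 0.387% and 0.308% of all genes. It was 7 without either NC mimic library (4.47% and 4.53% of all genes) and 17 without plus-ELK3 replicate 1 (37.4%). Against the NC mimic it was 2 and 3 without NC mimic replicate 1 and 2 (0.711% and 0.719% of all genes), 7 without miR-200a replicate 2 (4.71%) and 18 without plus-ELK3 replicate 1 (37.3%).

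**Figure D4:**
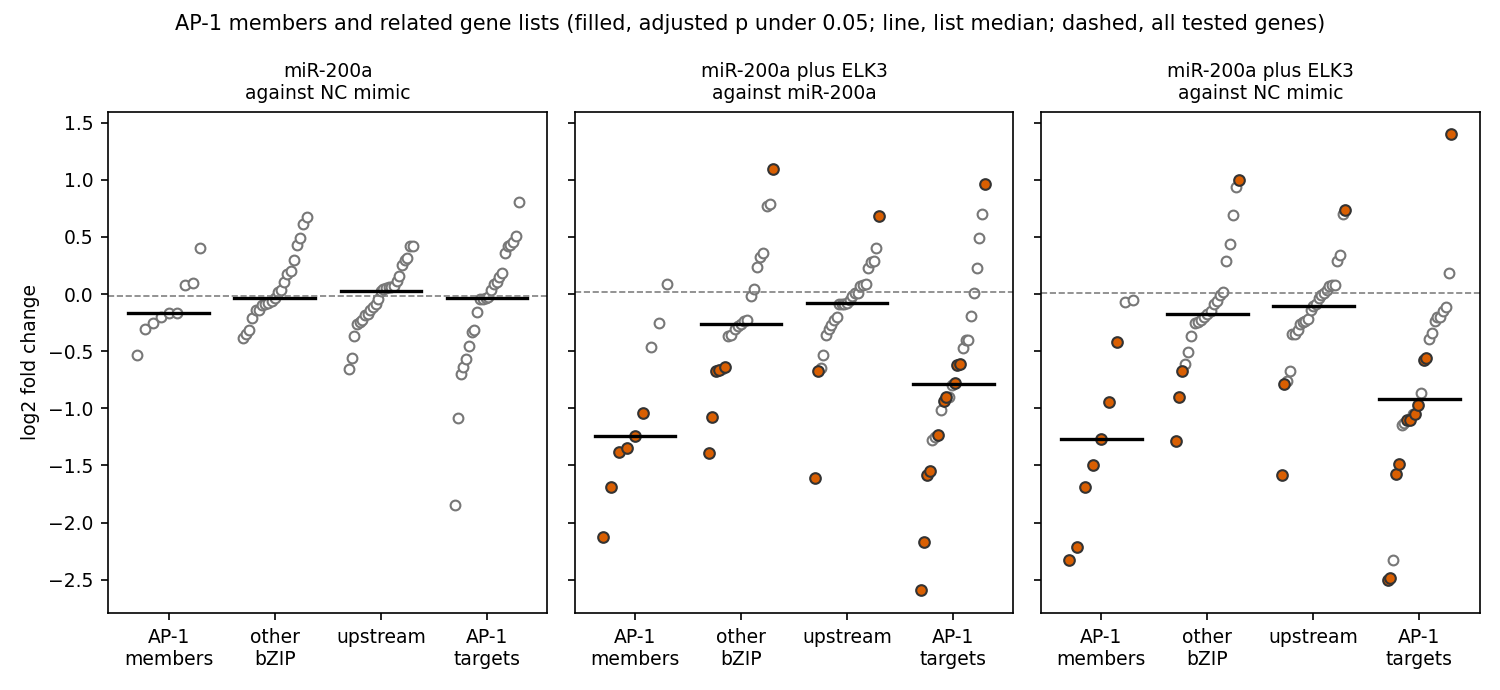
Log2 fold changes of the tested genes of each list in the 3 comparisons, with a point per gene (filled where the adjusted p is under 0.05), a line at the list's median and a dashed line at the median of all tested genes. In both comparisons of the plus-ELK3 libraries the medians of the AP-1 members are -1.24 and -1.27 and those of the AP-1 target genes -0.79 and -0.92, beside 0.016 and 0.0105 over all tested genes.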

How the data were processed

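For each of 6 QuantSeq libraries the authors deposited unnormalized counts by gene symbol, which the submitters' processing notes link to Bowtie2, edgeR and hg19 without roles or versions. The counting program, the annotation and the use of strand are not given in the sources used here, and the methods name ExDEGA for the differential analysis. Each library lists 25737 lines and 24462 symbols, and 286 symbols on several lines were summed. Groups came from the labels.

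Tests were run with edgeR 4.0.16 in R 4.3.3 (TMM scaling, filterByExpr with a minimum count of 10, all 3 groups in 1 model with 3 residual degrees of freedom), with an adjusted p under 0.05 as the threshold. Standard errors were taken as the absolute log2 fold change over the square root of F, and intervals are 95%. Replicates differed beyond counting noise in each group, which does not tell separate cultures from repeat preparations. Alternatives were DESeq2 1.42.0, limma 3.58.1 on quantile-normalized log2(count + 1), other filters and scalings, the 2 compared groups alone, a replicate block, the criteria of the study's methods and leave-one-out fits.

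The members and the gene lists were chosen with earlier results of these data known. All members are named, with at most 4 genes per list, comparison and direction, those that passed with the smallest p, the 5 genes of like pattern, and ELK3, except for a gene that is not reported here. Positions and 3′UTRs are from GENCODE release 29 on GRCh38, matched by symbol, since no hg19 annotation was used here.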

Additional observations from a re-analysis of the deposited data

How the results depend on the processing

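Over 16 alternatives for each of the 9 members, direction and side of the threshold were kept in 133, 124 and 123 of 144 cases for miR-200a against the NC mimic, plus-ELK3 against miR-200a and plus-ELK3 against the NC mimic. Calls were lost in 0, 13 and 17, and gained in 9, 6 and 0. The sign turned in 7 cases, none of them called and each with 1 library left out. With each library left out in turn, the log2 difference with miR-200a ranged from -0.388 to 0.00817 for FOS and from -0.064 to 0.242 for ATF3. In plus-ELK3 against miR-200a it ranged from -0.0298 to 0.162 for FOSL1. Against the NC mimic it ranged from -0.187 to 0.0484 for FOSL1, which was also 0.0213 without plus-ELK3 replicate 2, and from -0.166 to 0.0609 for JUND, which was 0.0519 there.

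Members called with miR-200a were 0 in the main analysis, 3 with the 2 compared groups alone and 0 to 3 with 1 library left out. Against miR-200a they were 6, 2 under limma and 1 to 8 with 1 library left out, and against the NC mimic 7 and 2 to 7. Of all genes, 34 passed with miR-200a, 88 under DESeq2, 230 with no filter, 4 under limma, 999 with the 2 groups alone, 578 under the criteria of the study's methods and 0 to 1001 with 1 library left out. Against miR-200a 1637 passed, 2490 with no filter, 107 under limma, 579 with the 2 groups alone and 39 to 4730 with 1 library left out. Against the NC mimic 1629 passed, 2525 with no filter, 391 under limma, 598 with the 2 groups alone, 2455 under the study's criteria and 90 to 4721 with 1 library left out. The cause of these shifts was not tested. The study's criteria, as applied here, use an unadjusted p with cut-offs on fold change and level. In the fits with 1 library left out, the group left with 1 library adds nothing to the spread.

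Nothing in the labels ties libraries of the same number together, and the correlations of their deviations were -0.00299, -0.036 and -0.11. With the replicate block 13, 1157 and 1170 genes and 0, 6 and 6 members passed. With the numbers of the plus-ELK3 libraries crossed, an alternative added after the data were seen, 22, 1644 and 1661 genes and 0, 6 and 7 members passed. With 2 libraries per group, the wide gap between the plus-ELK3 replicates limits the precision of FOS above all.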
